A study of Danio rerio with 9 samples.

Results

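Notch receptors, their Delta ligands and the hairy-related (her) target genes were followed in sorted zebrafish leukaemia cells of 2 models. The members were the 10 genes dla, dlb, dlc, dld, notch1a, notch1b, notch2, notch3, her6 and her9, and all 10 were measured. They were found as every probe set whose platform annotation gives exactly 1 gene symbol equal to a member, which gave 16 of the 15502 tested probe sets. As named genes they were 10 of 8793. Where a gene had several probe sets, they are lettered A, B and C from the highest to the lowest mean signal. The study compares 6 arrays of the hMYC-ER model with 3 arrays of the hlk model. The labels give both groups as GFP+ cells sorted by FACS as T-lymphoblasts from fish bodies at the last stage of disease. In hMYC-ER, as background, human MYC is fused to a hormone-binding part of the oestrogen receptor and is known to be driven by the rag2 promoter, which is active in precursors of B and T cells, while hlk is a heritable mutant line prone to T cell malignancy. The labels name neither the promoter nor the inducing agent, nor the age and sex of the fish, nor the gene mutated in hlk. Each array is called by its sample number, with hMYC-ER holding 1 to 6 and hlk 7 to 9. Nothing in the labels ties the arrays to separate fish, so a p-value here reflects array-to-array spread that may be technical.

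Notch proteins are receptors in the cell membrane that bind Delta or Jagged ligands on a neighbouring cell. Binding leads to cleavage of the receptor by ADAM proteases and gamma-secretase, and the freed intracellular part enters the nucleus, where it joins the DNA-binding protein Rbpj and switches on genes such as those of the her and hey families. In mammals Notch1 signalling commits lymphoid precursors to the T lineage and is often activated by mutation in human T cell leukaemia, whereas Notch2 acts in marginal zone B cells. An array of this kind measures transcript levels only and does not report receptor cleavage.

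Signals are given as log2 values after quantile normalization, with a floor at 4, and levels of different probe sets are not set against each other. On hlk array 7 the ratio of the 3' to the 5' signal of the gapdh control, a measure of RNA integrity, was 50.8. Its 5' signal there was 227.8 on the deposited scale, against 2951 to 5604 on the hMYC-ER arrays, and 6621 and 5504 on hlk arrays 8 and 9. Member results are therefore also given without array 7 where leaving it out changed a call. Among the hMYC-ER arrays, array 1 had the highest gapdh ratio and the lowest 5' signal, 2951, though both were far less extreme than on array 7. The cell type label was checked against its markers. Of 7 measured T cell markers, 0 were higher in hMYC-ER and 3 were lower, namely gata3, runx3 and trac, for the constant part of the T cell receptor alpha chain, and all 10 measured B cell markers were higher. The leading trac probe set differed by -4.60 (SE 0.70, limma adjusted p 0.00293), while its other 2 probe sets, at -0.89 (adjusted p 0.413) and -1.16 (adjusted p 0.230), did not pass. The other 4 T cell markers did not pass. Among them, rag2 (1.25, adjusted p 0.592), whose promoter is active in precursors of B and T cells, is not a marker of T cells alone. Its signal lay at the floor on hlk array 7 and at 8.61 and 9.88 on hlk arrays 8 and 9. In hMYC-ER it ran from 5.94 to 9.91. The recombinase gene rag1 (-4.12, adjusted p 0.0568) is likewise not a marker of T cells alone. It stood at 7.22 on hlk array 7 and at 13.13 and 12.39 on hlk arrays 8 and 9. The summed linear signal of the T cell list was 3323 to 4983 in hMYC-ER and 27994 to 30890 in hlk, and that of the B cell list was 61313 to 77443 in hMYC-ER and 5919 to 8977 in hlk. Such a sum follows its brightest probe sets most, which for T cells in hlk was that of runx3, at 13.89 to 14.11 on the log2 scale. For B cells in hlk it was that of cd74a, at 11.77 to 12.49, while pax5, blnk, btk and syk averaged 4.31 to 4.83. No marker of either list lay at the floor on all arrays, and the part of these cell type differences in the results below was not tested. Only 7 of 20 listed T cell markers and 10 of 20 listed B cell markers were measured. Without a named probe set were, among others, cd4-1, cd8a, lck and zap70 for T cells and cd79a, cd79b and ighm for B cells. By the measured markers of these lists, the T-lymphoblast label was not borne out for hMYC-ER. The B cell genes pax5 and igl1c1 averaged 11.09 and 14.04 there, against 4.31 and 6.33 in hlk. In sorted bulk samples, fewer cells of a type and less RNA per cell cannot be told apart.

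Of the 16 member probe sets, 3 were higher in hMYC-ER, 0 were lower and 13 did not pass (limma, adjusted p under 0.05 over all tested probe sets). Over the whole array 18.9% of probe sets were called, 9.1% higher and 9.81% lower in hMYC-ER, and the share of members called, 3 of 16, was close to that background. The 3 called probe sets belonged to 2 genes, dlc with 2 and notch2 with 1. The median difference, hMYC-ER minus hlk, was 0.18 over the 16 probe sets and -0.05 over all tested probe sets. By role, 2 of 7 Delta probe sets, 1 of 7 Notch probe sets and 0 of 2 her probe sets were called. With hlk array 7 left out, 3 member probe sets were called higher and 0 lower, but probe set B of notch2 lost its call (adjusted p 0.138) and probe set A gained one (adjusted p 0.0453).

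**Figure D1:**
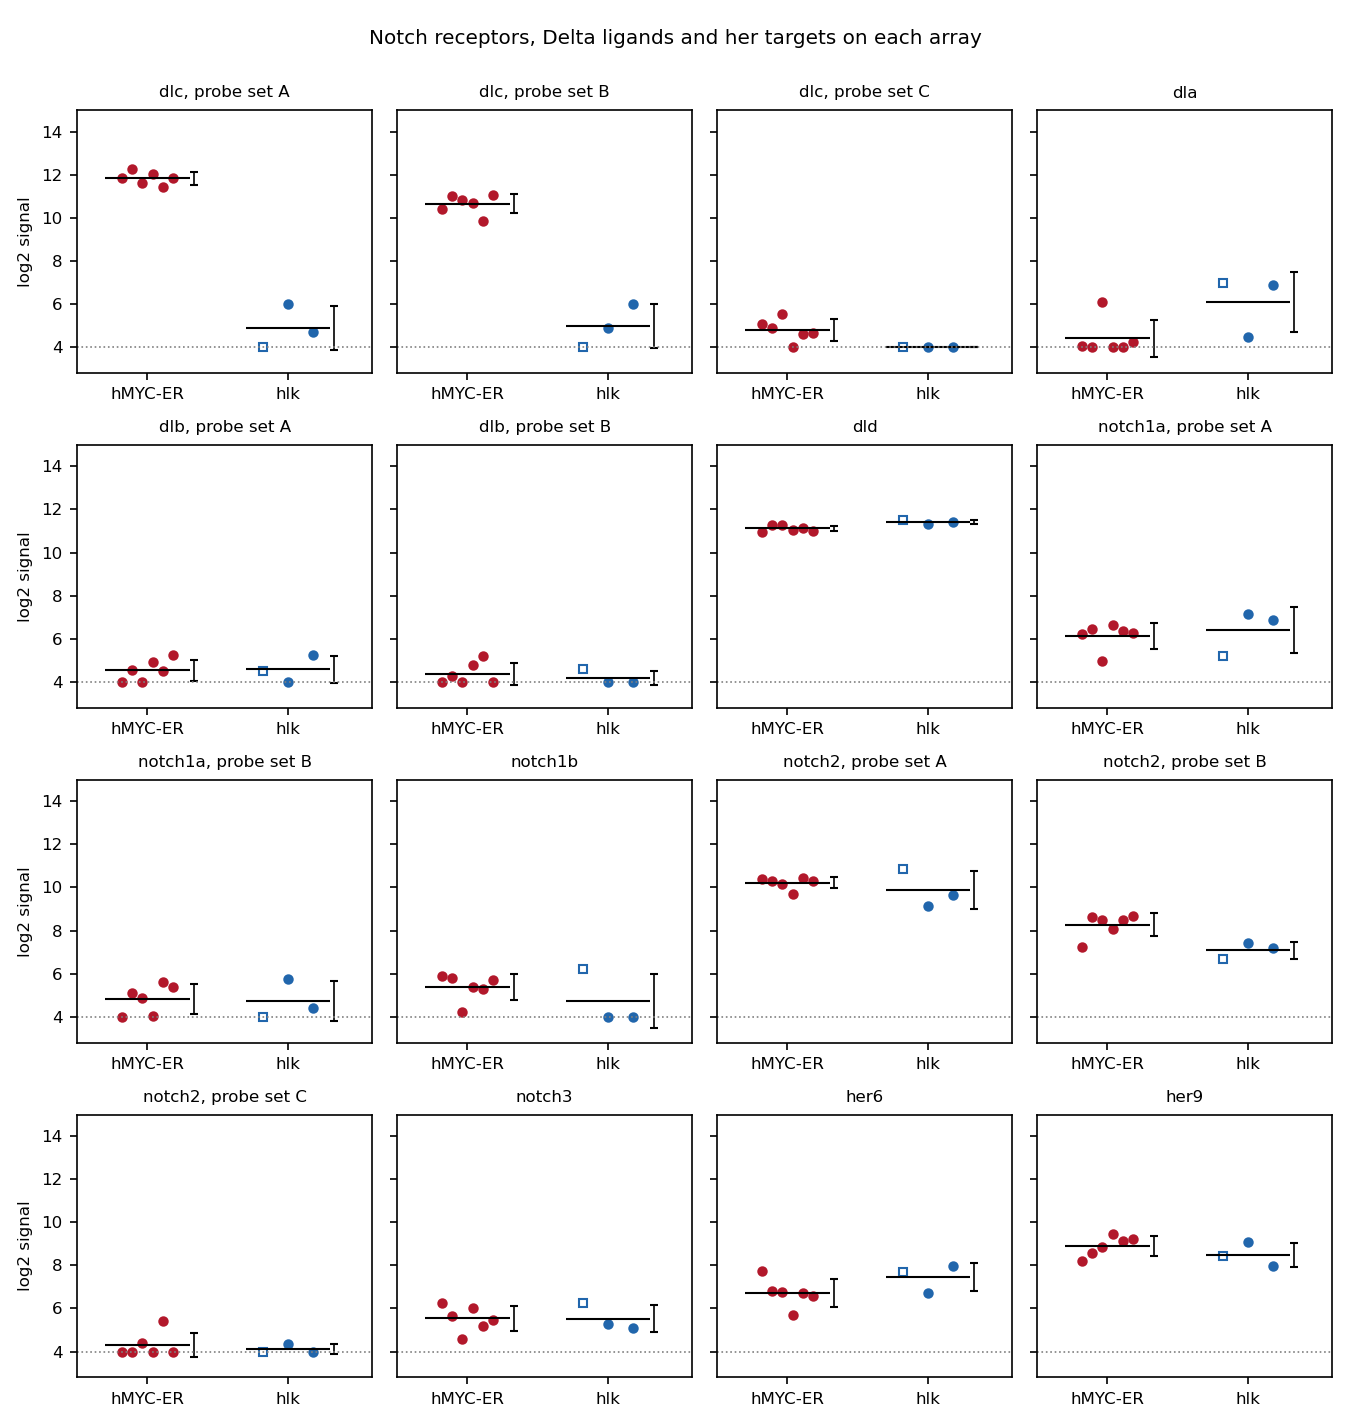
Log2 signal (vertical axis, dotted line at the floor of 4) of each member probe set on each array, hMYC-ER left (n = 6) and hlk right (n = 3), with the mean as a line and the SD as a bar; the open square is hlk array 7. For probe sets A and B of dlc, all 6 hMYC-ER arrays lay above all 3 hlk arrays, while for most others the groups overlapped.

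The Delta ligand gene dlc, which encodes DeltaC, a ligand known for its role in the segmentation clock of the zebrafish embryo, differed more between the models than any other member. Its probe set A had a log2 signal of 11.43 at the lowest, 11.85 at the median and 12.26 at the highest of the 6 hMYC-ER arrays, against 4.00, 5.99 and 4.69 on hlk arrays 7, 8 and 9. All 6 hMYC-ER values were high and close together, and the 3 hlk values were low but spread more widely. The difference was 6.94 (SE 0.40, 95% interval 6.03 to 7.85, limma adjusted p 1.8e-05), an at least 123-fold higher signal in hMYC-ER, since hlk array 7 lay at the floor. Leaving out array 7 gave a difference of 6.50 (adjusted p 5.2e-05).

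Probe set B of dlc gave the same direction. It stood at 9.86, 10.77 and 11.04 (lowest, median and highest) in hMYC-ER, against 4.00, 4.89 and 6.01 on hlk arrays 7, 8 and 9, and the groups did not overlap. The difference was 5.68 (SE 0.44, adjusted p 8.7e-05), and 5.19 without array 7 (adjusted p 2.1e-04). The suffix of this probe set marks one whose probes can match more than 1 transcript. Array 5 was the lowest hMYC-ER array for both probe sets, at 11.43 for A and 9.86 for B. In hlk the order differed, with array 8 highest for A and array 9 highest for B.

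Probe set C of dlc stayed near the floor. It reached 4.00, 4.76 and 5.51 (lowest, median and highest) in hMYC-ER and was floored on all 3 hlk arrays, with 1 hMYC-ER array at the floor as well. Its difference of 0.78 (SE 0.29, adjusted p 0.0999), between values held up by the floor in both models, did not pass, though it did without hMYC-ER array 4 (0.94, adjusted p 0.0264). The calls of A and B were kept in all 9 fits that left out 1 array, with differences of 6.50 to 7.49 for A and 5.19 to 6.20 for B.

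Across the 9 arrays, the genes with a profile most like that of dlc were blnk, igl1c1 and plekhh1. Likeness was the root mean square difference between log2 values centred on each gene's own mean, among the leading probe sets of all named genes. It was 0.41 for blnk, an adaptor of the B cell receptor, 0.53 for the immunoglobulin light chain gene igl1c1 and 0.58 for plekhh1, a gene for a pleckstrin homology domain protein. The profile of blnk lay between 10.63 and 11.54 on the hMYC-ER arrays and at 4.09, 5.42 and 4.00 on hlk arrays 7, 8 and 9. These genes were chosen for this likeness, so that their own differences between the models are not an added result.

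The other measured Delta genes did not show the pattern of dlc. For dld, which encodes DeltaD, a partner of DeltaC in the segmentation clock, signals were 10.97, 11.09 and 11.29 (lowest, median and highest) in hMYC-ER, against 11.51, 11.33 and 11.44 on hlk arrays 7, 8 and 9. The 3 hlk values all lay above the 6 hMYC-ER values, a separation that 20.6% of all probe sets showed in one direction or the other. The difference was small, -0.31 (SE 0.10, 95% interval -0.54 to -0.07), and did not pass (adjusted p 0.0731). It passed with median centring of the arrays in place of quantile normalization (-0.47, adjusted p 0.0252), a setting that moved the median of all probe sets from -0.05 to -0.15, and with a floor of 64 (-0.31, adjusted p 0.0496).

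The gene dla encodes DeltaA, a ligand of the zebrafish nervous system. It lay at 4.00, 4.02 and 6.10 (lowest, median and highest) in hMYC-ER, with 3 of 6 arrays at the floor, against 6.95, 4.46 and 6.85 on hlk arrays 7, 8 and 9. Array 3 of hMYC-ER and array 8 of hlk each stood apart from their own group, so the groups overlapped. The difference of -1.70 (SE 0.68, 95% interval -3.26 to -0.13) did not pass (adjusted p 0.130). Leaving out array 8 gave -2.51 (adjusted p 0.0281) and leaving out array 3 gave -2.04 (adjusted p 0.0490), both past the threshold. Leaving out array 7 gave -1.26 (adjusted p 0.330).

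Both probe sets of dlb, the gene for DeltaB, stayed near the floor. Probe set A ran from 4.00 to 5.24 in hMYC-ER and stood at 4.49, 4.00 and 5.24 on hlk arrays 7, 8 and 9. Probe set B ran from 4.00 to 5.22 in hMYC-ER and stood at 4.57, 4.00 and 4.00 on the hlk arrays. Neither passed, with differences of -0.04 (95% interval -0.86 to 0.78, adjusted p 0.970) and 0.19 (-0.54 to 0.91, adjusted p 0.740).

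**Figure D2:**
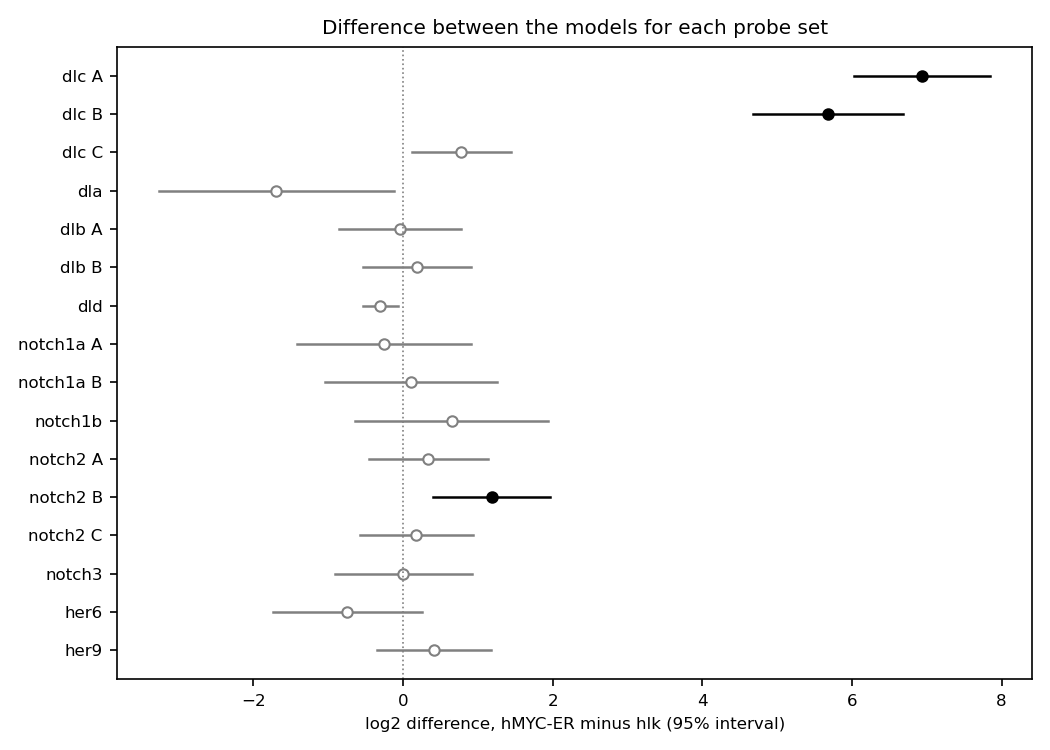
Difference in log2 signal, hMYC-ER minus hlk (horizontal axis), with its 95% interval for each member probe set; filled black points passed limma's adjusted p threshold of 0.05 and open grey points did not. The 2 dlc probe sets at 6.94 and 5.68 lie far from the rest, and 1 notch2 probe set at 1.19 is the other call.

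Among the receptors, notch2 was the member with a call. Its probe set B stood at 7.24, 8.51 and 8.69 (lowest, median and highest) in hMYC-ER, against 6.66, 7.44 and 7.17 on hlk arrays 7, 8 and 9. Array 1 was the lowest hMYC-ER array and lay between the hlk values, and the other 5 lay above all 3 hlk arrays. The lowest array of each group, array 1 in hMYC-ER and array 7 in hlk, was also the one with the highest gapdh ratio of its group. The part of RNA integrity in these low values was not tested. The difference was 1.19 (SE 0.34, 95% interval 0.40 to 1.97, adjusted p 0.0446), or 2.28-fold. The call was at the edge of the threshold: it ended in 8 of 9 fits that left out 1 array, with an adjusted p of up to 0.138, reached without array 7 (difference 0.97). It was kept without array 1, where the difference was 1.39.

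Probe set A of notch2 did not pass. It lay at 9.71, 10.30 and 10.46 (lowest, median and highest) in hMYC-ER, against 10.85, 9.13 and 9.67 on hlk arrays 7, 8 and 9. Array 7, with its high gapdh ratio, was the highest of all 9 arrays, and arrays 8 and 9 lay below all 6 hMYC-ER arrays. The difference was 0.34 (SE 0.35, 95% interval -0.46 to 1.14, adjusted p 0.566), and without array 7 it was 0.82 and passed (adjusted p 0.0453). Probe set C was floored on 4 of 6 hMYC-ER and 2 of 3 hlk arrays (0.18, adjusted p 0.768). Probe sets A and B of notch2 were thus both higher on average in hMYC-ER, and with array 7 left out the call passed to A and was lost for B.

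The receptor genes notch1a and notch1b, the zebrafish copies of NOTCH1, did not pass. For notch1a, probe set A stood at 4.94, 6.32 and 6.63 (lowest, median and highest) in hMYC-ER, against 5.18, 7.16 and 6.85 on hlk arrays 7, 8 and 9. Its difference was -0.26 (SE 0.51, 95% interval -1.42 to 0.91, adjusted p 0.783). Each group had 1 low array, array 3 in hMYC-ER and array 7 in hlk, and leaving out array 7 gave -0.87 (adjusted p 0.220). The suffix of probe set A marks one whose probes can match more than 1 transcript. Probe set B, whose suffix marks probes that can bind other sequences, differed by 0.10 (95% interval -1.05 to 1.25, adjusted p 0.929).

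For notch1b, signals were 4.22, 5.55 and 5.88 (lowest, median and highest) in hMYC-ER, against 6.19, 4.00 and 4.00 on hlk arrays 7, 8 and 9. Array 7 was the highest of all 9 arrays, while the other 2 hlk arrays lay at the floor. The difference was 0.65 (SE 0.56, 95% interval -0.64 to 1.94, adjusted p 0.491), and 1.38 without array 7 (adjusted p 0.0653).

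The receptor gene notch3, which in mammals is expressed in developing T cells, averaged 5.54 ± 0.59 (SD, n = 6) for hMYC-ER and 5.53 ± 0.62 (SD, n = 3) for hlk. Its values ran from 4.60 to 6.24 in hMYC-ER, against 6.24, 5.28 and 5.07 on hlk arrays 7, 8 and 9, so that the groups overlapped. The difference of 0.0040 (SE 0.40, adjusted p 1) had a 95% interval of -0.92 to 0.92.

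The target genes her6 and her9 encode transcriptional repressors of the hairy and Enhancer of split family, and her6 is the zebrafish counterpart of mammalian HES1, a direct Notch target in T cells. For her6, signals were 5.71, 6.74 and 7.76 (lowest, median and highest) in hMYC-ER, against 7.69, 6.73 and 7.99 on hlk arrays 7, 8 and 9. The groups overlapped, and array 1 was the highest hMYC-ER array. The difference was -0.75 (SE 0.43, 95% interval -1.75 to 0.25) and did not pass (adjusted p 0.293).

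For her9, signals were 8.203, 9.00 and 9.45 (lowest, median and highest) in hMYC-ER, against 8.42, 9.10 and 7.97 on hlk arrays 7, 8 and 9. The groups overlapped, and the difference of 0.41 (SE 0.33, 95% interval -0.34 to 1.17) did not pass (adjusted p 0.448). The 2 her genes thus lay on opposite sides of 0 without a call for either, and both kept their direction in all 16 alternative fits.

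**Figure D3:**
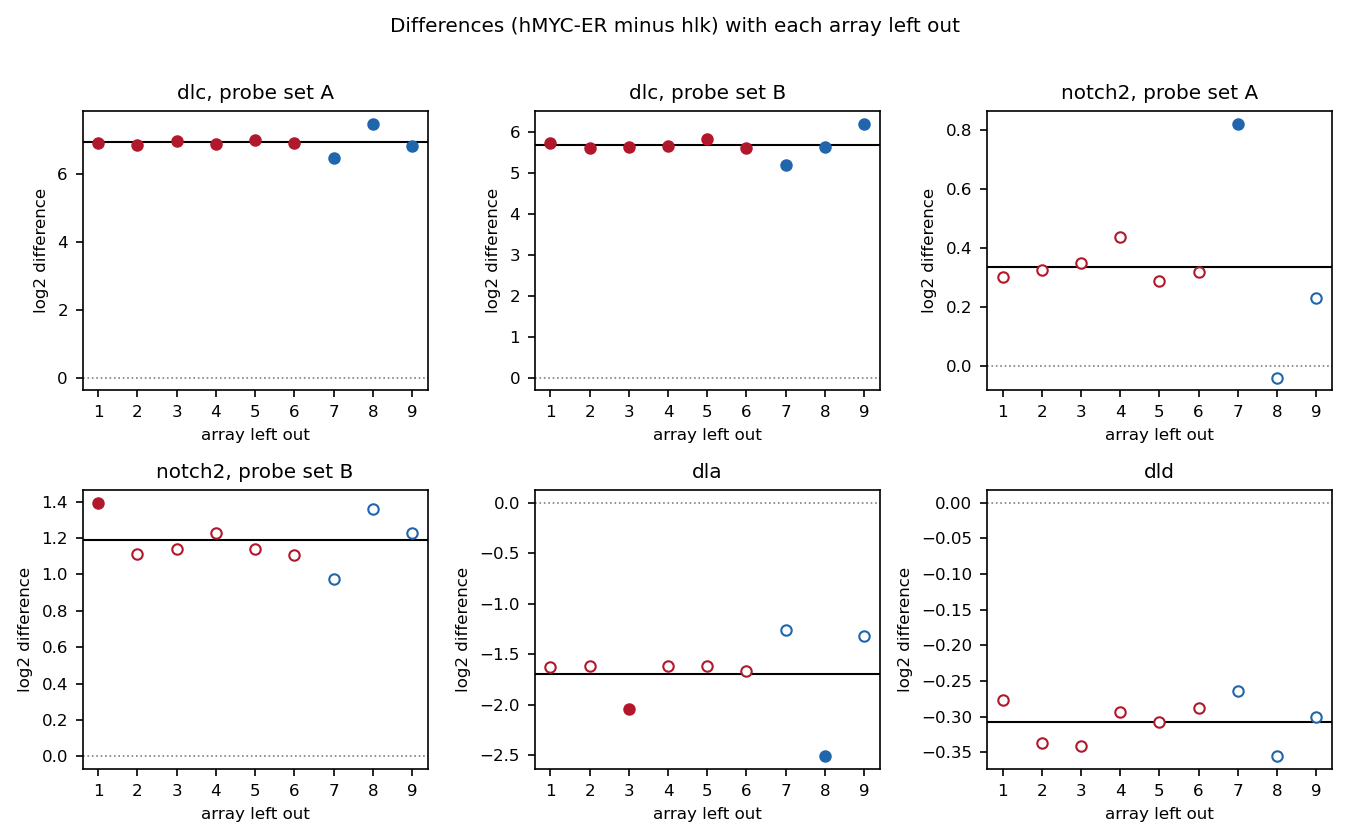
Log2 difference (vertical axis, own scale in each panel), hMYC-ER minus hlk, with each of the 9 arrays left out in turn (horizontal axis; red for hMYC-ER arrays, blue for hlk arrays), beside the value from all arrays (black line); filled points passed an adjusted p of 0.05. Both dlc probe sets passed in every fit, while notch2 B passed only without array 1, notch2 A only without array 7 and dld in none.

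The rest of the Notch pathway was described from 7 lists with 108 genes, of which 54 had a named probe set. Of these 54, 5 were higher in hMYC-ER, 8 were lower and 41 did not pass, where 10% of all genes were called higher and 11.1% lower. The median difference was -0.10 over the 54 genes and -0.08 over all 8793 genes. In both directions together 21.1% of all genes were called, each gene being read from its probe set of highest mean signal. By the same reading, 1 of the 10 members was called, dlc. Without array 7 the counts were again 5 higher and 8 lower, but among the genes named here adam17a was gained and her5, her15.2, sel1l and ccnd1 were lost.

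Among 3 other ligand genes, 1 was lower in hMYC-ER and 2 did not pass. That gene, jag1a, encodes a Jagged ligand of Notch receptors. Its signal was 5.83, 6.78 and 7.89 (lowest, median and highest) in hMYC-ER, against 10.21, 10.59 and 10.83 on hlk arrays 7, 8 and 9. The groups lay far apart, and the difference was -3.71 (SE 0.51, adjusted p 0.00179), a 13.1-fold lower signal in hMYC-ER. It ran from -3.93 to -3.51 when 1 array was left out, and passed in all 9 such fits. The Delta gene dlc and the Jagged gene jag1a thus differed in opposite directions, while jag1b (-0.10, adjusted p 0.894) and jag2b (0.06, adjusted p 0.900) did not pass.

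Of 5 genes for ligand endocytosis and receptor glycosylation, 1 was lower in hMYC-ER and 4 did not pass. It was gmds, which encodes an enzyme that makes the fucose donor used to modify Notch receptors. The gmds signal was 7.22, 7.62 and 8.12 (lowest, median and highest) in hMYC-ER, against 8.65, 9.01 and 8.97 on hlk arrays 7, 8 and 9, with no overlap (-1.26, SE 0.19, adjusted p 0.00280). The list also held the ubiquitin ligase gene mib1, needed for Delta endocytosis, which differed by -0.0022 (SE 0.80, adjusted p 1). Its leading probe set stood at 4.31 on array 1, against 6.83 to 8.27 on the other hMYC-ER arrays. The second mib1 probe set differed by 0.47 (adjusted p 0.321). Also listed were the fringe genes lfng (-0.21, adjusted p 0.852) and rfng (-0.46, adjusted p 0.323), whose products modify the sugar chains of Notch receptors.

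Of 8 genes for receptor cleavage, each read from its leading probe set, 0 passed, and 0 passed at an unadjusted p of 0.05. The smallest p-values among these probe sets were those of aph1b, a subunit of gamma-secretase (0.31, SE 0.14, adjusted p 0.172), and adam17a, a sheddase (0.58, SE 0.27, adjusted p 0.191). The dimmer furina probe set, floored on 4 hMYC-ER arrays, differed by -1.17 (limma unadjusted p 0.034, adjusted p 0.123). The leading furina probe set differed by 0.32 (adjusted p 0.761). For adam17a the hlk values were 9.37, 8.62 and 7.92 on arrays 7, 8 and 9, and without array 7 its difference was 0.94 and passed (adjusted p 0.0139).

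In the list of the nuclear complex and its corepressors, 2 of 7 with a probe set rose in hMYC-ER relative to hlk, and 5 missed the threshold. The genes for Rbpj and the Mastermind coactivators had no named probe set here. Both called genes encode C-terminal binding protein corepressors. For ctbp2a, signals were 7.68, 7.86 and 8.43 (lowest, median and highest) in hMYC-ER, against 4.58, 5.76 and 4.00 on hlk arrays 7, 8 and 9, a difference of 3.15 (SE 0.36, adjusted p 6.5e-04), from a probe set whose probes can match more than 1 transcript. Its paralogue ctbp1 lay at 10.57, 10.68 and 10.89 in hMYC-ER, against 10.04, 9.99 and 9.93 on the hlk arrays (0.71, SE 0.09, adjusted p 0.00108). Neither pair of groups overlapped, and both calls were kept in all 9 fits that left out 1 array.

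Among 7 negative regulators, 2 were lower in hMYC-ER and 5 did not pass. The gene nrarpa encodes an ankyrin repeat protein that is induced by Notch and limits its signal. Its brightest probe set stood at 5.67, 6.11 and 6.65 (lowest, median and highest) in hMYC-ER, against 8.53, 7.79 and 7.99 on hlk arrays 7, 8 and 9. All hlk values lay above all hMYC-ER values, and the difference was -2.02 (SE 0.24, adjusted p 8.7e-04), 4.05-fold lower in hMYC-ER. It ran from -2.17 to -1.80 when 1 array was left out. The 3 dimmer nrarpa probe sets differed by -0.46, -0.02 and -0.07 and did not pass.

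Its paralogue nrarpb did not follow it. The leading probe set differed by -0.14 (adjusted p 0.711), and of 3 others 1 was higher in hMYC-ER, at 5.49 against 4.35 in hlk (1.14, adjusted p 0.0104). The second called gene, sel1l, named for a nematode regulator of Notch and known for its part in protein degradation at the endoplasmic reticulum, had signals of 7.19, 7.71 and 8.04 (lowest, median and highest) in hMYC-ER, against 8.45, 8.18 and 8.74 on hlk arrays 7, 8 and 9 (-0.75, SE 0.20, adjusted p 0.0361). Its call ended in 5 of 9 fits that left out 1 array, array 7 among them (-0.75, adjusted p 0.0810).

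**Figure D4:**
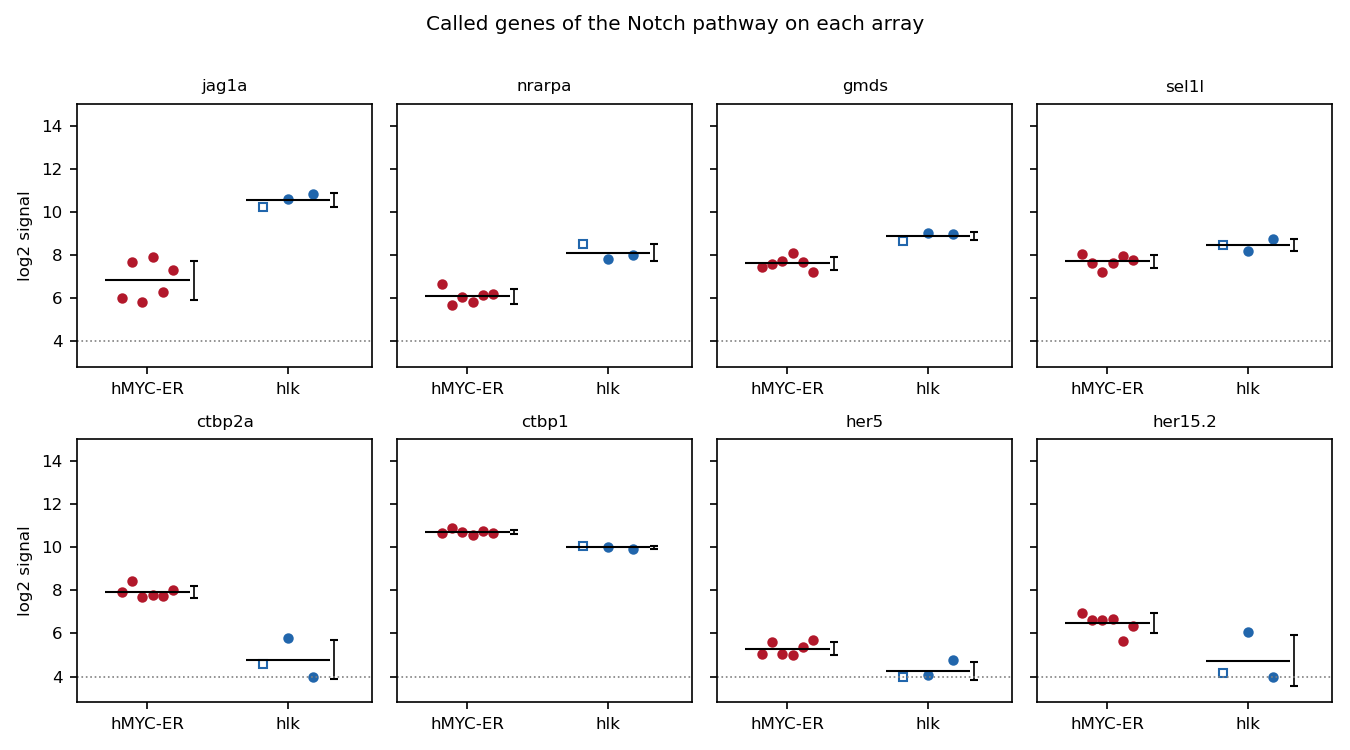
Log2 signal (vertical axis, dotted line at the floor of 4) on each array for 8 called genes of the Notch pathway, hMYC-ER left (n = 6) and hlk right (n = 3), with means, SD bars and hlk array 7 as an open square. jag1a, nrarpa, gmds and sel1l were lower in hMYC-ER, and ctbp2a, ctbp1, her5 and her15.2 were higher.

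Of 13 other hairy and hey genes, 2 rose in hMYC-ER relative to hlk and 11 missed the threshold. The gene her5, a repressor at the midbrain-hindbrain boundary, lay at 5.01, 5.20 and 5.70 (lowest, median and highest) in hMYC-ER, against 4.00, 4.05 and 4.76 on hlk arrays 7, 8 and 9 (1.02, SE 0.24, adjusted p 0.0189). The gene her15.2, a relative of mammalian HES5, lay at 5.64, 6.62 and 6.95 in hMYC-ER, against 4.14, 6.08 and 4.00 on the hlk arrays (1.73, SE 0.48, adjusted p 0.0398). Array 8 of hlk overlapped the hMYC-ER range of her15.2. Both calls ended without array 7, at 0.88 (adjusted p 0.0628) for her5 and 1.43 (adjusted p 0.127) for her15.2, and that of her15.2 ended in 7 of 9 such fits. The Notch target genes hey1, hey2 and heyl, known from the heart and vessels, stayed between 4.00 and 5.88 on all arrays, with differences of -0.41, 0.025 and -0.15, and 0 of 3 passed.

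The last list held zebrafish relatives of genes that Notch is known to activate in mammalian T cells, the myc paralogues myca, mycb and mych among them. Of 11 measured, 4 were lower in hMYC-ER, 1 was higher and 6 did not pass. The lower genes were myca (-4.29, SE 0.19, adjusted p 5.9e-06), runx3 (-3.52, SE 0.35, adjusted p 3.3e-04), gata3 (-4.69, SE 0.64, adjusted p 0.00171) and ccnd1 (-1.64, SE 0.47, adjusted p 0.0449), the last named after its values were seen. The myc paralogue mych was higher (2.77, SE 0.24, adjusted p 1.7e-04), while mycb did not pass (-1.16, adjusted p 0.290). The ccnd1 call ended in 8 of 9 fits that left out 1 array, its difference being -0.96 without hlk array 8 (adjusted p 0.0597), and its second probe set did not pass (-1.86, adjusted p 0.0525). Without array 7 the difference of gata3 was -4.08 (adjusted p 0.00519). Of these genes, gata3 and runx3 also stand in the T cell marker list, as 2 of its 3 called members. Values for cd28 (0.28, adjusted p 0.777), runx1 (-0.27, adjusted p 0.683) and nfkb2 (-0.52, adjusted p 0.345) did not pass.

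**Figure D5:**
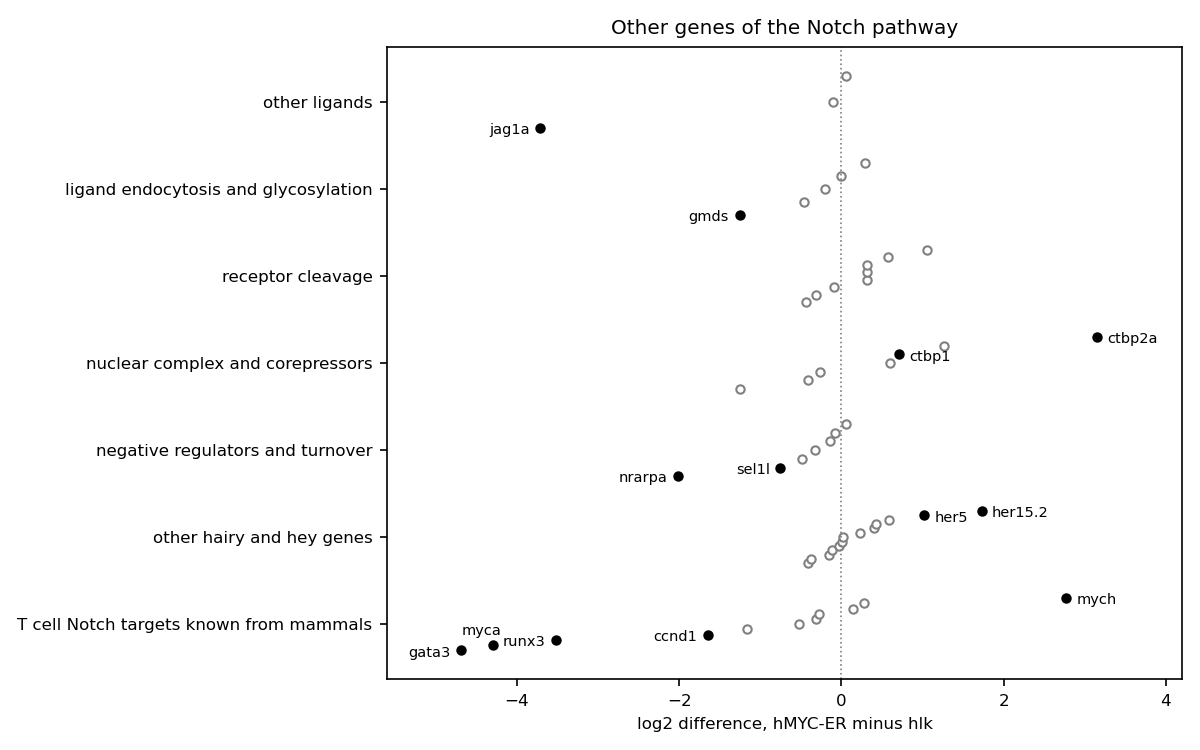
Log2 difference, hMYC-ER minus hlk (horizontal axis), of the 54 measured genes of the Notch pathway, by list; filled and named points passed limma's adjusted p threshold of 0.05. The 8 genes left of 0 that passed include jag1a at -3.71 and nrarpa at -2.02, and the 5 right of 0 include ctbp2a at 3.15.

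Marker lists of other cells that the sort could hold were read in the same way. Of 6 endothelial, 6 thymic epithelial, 8 myeloid, 8 erythroid and 4 thrombocyte markers, 0 passed. The summed linear signal of the endothelial list was 216 to 288 in hMYC-ER and 208, 381 and 384 on hlk arrays 7, 8 and 9. Without array 7 the hlk sums of the endothelial list thus lay above those of all hMYC-ER arrays. For the thymic epithelial list the sum was 190 to 335 in hMYC-ER and 998, 314 and 265 on hlk arrays 7, 8 and 9. Without array 7 the hlk sums of the thymic epithelial list thus lay within the hMYC-ER range. The erythroid sum was 591 to 833 in hMYC-ER and 1025, 448 and 299 on hlk arrays 7, 8 and 9. Without array 7 the hlk sums of the erythroid list thus lay below those of all hMYC-ER arrays. The myeloid sum was 7141 to 8604 in hMYC-ER and 6512 to 9187 in hlk. That of the thrombocyte list was 65 to 152 in hMYC-ER and 98 to 142 in hlk. Of 13 neural markers, 2 were higher in hMYC-ER and 2 were lower, with summed signals of 714 to 2219 in hMYC-ER and 551 to 817 in hlk. The neuronal marker gene elavl4 was floored on 6 of 6 hMYC-ER arrays and 2 of 3 hlk arrays. The leading probe set of its paralogue elavl3 lay above the floor on every array, at 5.21 to 6.82 in hMYC-ER and 6.00 to 7.11 in hlk. The part of these lists in the differences of dlc and jag1a was not tested.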

How the data were processed

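Per the labels' protocols, RNA was extracted with Trizol and biotinylated cRNA was made from 100 ng of total RNA. The values deposited by the authors are linear intensities, 1 for each probe set on each array, and their mean after trimming 2% at each end was 500.1 to 500.2 on every array. No label names the signal algorithm, and no detection calls were used. The number of arrays limits precision.

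The 9 arrays were quantile normalized, since the medians of their deposited values on the log2 scale differed by 0.31, signals under 16 were raised to 16, which touched 18.7% to 18.8% of each array, and log2 was taken. The 115 control probe sets were left out, and 15502 were tested with limma 3.58.1 (R 4.3.3; lmFit and eBayes without covariates; batch and model cannot be told apart where they coincide), hMYC-ER minus hlk, with Benjamini-Hochberg adjustment over all of them. Every adjusted p comes from limma. Figures used Python 3.11.15 and matplotlib 3.10.9. The fit was tested on simulated data. Names came from the platform annotation, 10795 probe sets having 1 symbol. Of these, 10711 were matched by Entrez identifier to RefSeq gene symbols, which changed 1 name. No build is named, so no coordinates are given.

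Members and lists were chosen with earlier results of these data known. All members were named, with up to 4 called genes of the smallest p per list (2 where none passed) and the 3 genes most like each called leading member probe set. Alternatives were median centring, no normalization, floors of 1 and 64, omission of the dimmest probe sets, array weights, a robust prior with an intensity trend, omission of single arrays, a 2-fold minimum and the mean of a gene's probe sets.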

Additional observations from a re-analysis of the deposited data

Results flagged for a closer look

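Within the 6 hMYC-ER arrays, 5 of 31 named probe sets had 1 array far from the others. Chance flags about 1 in 20 only where values are not floored. The floor tied 3 of 6 hMYC-ER arrays for dla and 4 of 6 for notch2 probe set C, so the count cannot be set against that rate. Array 3 was the array far from the others for 3 members. It stood at 6.10 for dla, against 4.00 to 4.23 on the other 5 arrays, at 4.94 for notch1a probe set A, against 6.20 to 6.63, and at 4.22 for notch1b, against 5.29 to 5.88. Array 5 stood at 5.42 for notch2 probe set C, against 4.00 to 4.39 on the others. Array 6 lay at the floor of 4.00 for gata3, against 5.48 to 6.22.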

How the results depend on the processing

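Both dlc calls, and those of jag1a, gmds, ctbp1, ctbp2a, nrarpa, myca, mych, runx3 and gata3, were kept with their direction in all 16 alternative fits. The number of member probe sets lower in hMYC-ER, 0 in the text, was 1 with median centring and 1 with a floor of 64, namely dld, and 0 to 1 when 1 array was left out, namely dla. The number of pathway genes higher in hMYC-ER was 3 with a floor of 64 and 3 with array weights, in place of 5. The call of notch2 probe set B also ended with a floor of 1 (adjusted p 0.0545), a floor of 64 (0.0651) and array weights (0.0735), and those of sel1l, her15.2 and ccnd1 each ended under 3 settings beside the left-out arrays. Small differences that did not pass changed sign. With median centring, notch1a B was -0.024 and notch3 was -0.14. The signals as deposited gave -0.015 for notch3, a floor of 64 gave -0.033 for notch3 and -0.064 for notch1b, a floor of 1 gave 0.38 for dlb A, and array weights gave -0.00066 for notch1a B. With 1 array left out, the ranges were -0.33 to 0.29 for dlb A, -0.87 to 0.13 for notch1a A, -0.26 to 0.62 for notch1a B, -0.038 to 0.82 for notch2 A, -0.046 to 0.30 for notch2 C and -0.23 to 0.36 for notch3. The cause of these changes was not tested. With a floor of 64, 5 member probe sets lay wholly at the floor and gave no value in that fit. In the separate fit without the dimmest probe sets, 7 member probe sets were left out and gave no value. No paired analysis was possible because the labels give no pairing between the groups.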

Other observations

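Among the neural markers, the proneural transcription factor gene neurog1 averaged 8.70 ± 0.57 (SD, n = 6) for hMYC-ER and 4.59 ± 0.62 (SD, n = 3) for hlk. Its difference was 4.11 (SE 0.39, limma adjusted p 2.6e-04), higher on 6 of 6 hMYC-ER arrays than on any hlk array. The brightest probe set of sox2, a factor of stem cells and neural progenitors, averaged 8.38 ± 1.30 (SD, n = 6) for hMYC-ER and 4.61 ± 0.59 (SD, n = 3) for hlk. That difference was 3.78 (SE 0.75, limma adjusted p 0.00998), while the other sox2 probe sets differed by at least 3.44 (adjusted p 0.00104), with all 3 hlk arrays at the floor, and by -0.34 (adjusted p 0.570). The synaptic gene snap25a (-1.38, adjusted p 3.5e-04) and the fatty acid binding protein gene fabp7a (-0.90, adjusted p 0.0494) were lower in hMYC-ER, where they lay at the floor on 5 and 4 of 6 arrays.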
